A study of Mus musculus with 6 samples.

Results

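The genes described here are 37 mouse interferon-stimulated genes that stand outside the large families of such genes, among 55263 annotated genes with summed counts. They were taken by symbol from the GENCODE annotation, and the counts of all transcripts of a gene were added up. They comprise Isg15, Uba7, Ube2l6, Herc6 and Usp18 of the ISG15 conjugation system. Rsad2, Cmpk2, Mx1, Mx2, Isg20, Samd9l, Eif2ak2 and Adar are antiviral enzymes and GTPases, and Bst2, Ifitm3 and Rtp4 act at membranes. Ddx60, Helz2, Mov10 and Rnf213 encode helicases or helicase-like proteins, and Sp100, Sp110, Pml, Daxx, Phf11a, Phf11b and Phf11d encode nuclear body and chromatin proteins. The remaining 10 are Ifi35, Nmi, Trafd1, Xaf1, Epsti1, Ifi44, Tdrd7, Tor3a, Lgals9 and Lgals3bp. All were measured by RNA sequencing of macrophages grown from the bone marrow of wild-type mice, with 2 libraries in each of 3 groups. The groups were LPS+HACA, LPS alone and control. LPS is lipopolysaccharide, the outer membrane molecule of Gram-negative bacteria that TLR4 senses. HACA is a preparation that the labels name without spelling it out, in a study on psoriasis treatment with a nanomedicine based on hyaluronic acid. Neither the dose nor the length of the treatments is stated, and the mouse strain and the number of mice are not either.

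Type I interferons are secreted proteins that bind the receptor made of IFNAR1 and IFNAR2 and activate the kinases JAK1 and TYK2. These activate a complex that holds STAT2 and IRF9 and binds the interferon-stimulated response element (ISRE) in target promoters. In macrophages, LPS triggers interferon beta through TLR4, the adaptor TRIF and the transcription factor IRF3, and the secreted interferon then acts back on the cells. ISG15 is a ubiquitin-like protein that UBA7, UBE2L6 and, in the mouse, HERC6 attach to other proteins in turn, while USP18 removes it and also limits signalling at the interferon receptor.

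Promoter sequences, credited to RefSeq and the build GRCm38.p6, were matched by symbol for 32 of the 37 genes, and Mx1, Mx2, Tor3a, Rtp4 and Usp18 had no entry. The window held 250 bases before and 50 bases after each start. The ISRE core searched was GAAA, any 2 bases and GAAA again, on both strands and with overlaps allowed, and 10 of the 32 promoters (31.2%) held it, against 1079 of 27025 promoters of all genes (3.99%). In the 250 upstream bases alone, 8 of the 32 (25%) held it, against 3.46% of all promoters. A second motif searched, the GAS core of TTC, any 3 bases and GAA, stood in 6 of the 32 (18.8%), against 9.55% of all promoters. For the upstream bases alone these shares were 9.38% and 8.13%. A match describes letters in the window and does not show binding. The 150 bases before the start are shown for genes that carry the ISRE core there, with the matches in capitals, and for Cmpk2, a strongly LPS-raised gene whose window held none. The positions are chr4:156200819-156200968 for Isg15, chr12:26456453-26456602 for Rsad2, chr8:71537473-71537622 for Bst2, chr14:59297523-59297672 for Phf11a, chr14:59341331-59341480 for Phf11b and chr11:78984925-78985074 for Lgals9, all on the minus strand. Ddx60 lies at chr8:61927937-61928086 and Cmpk2 at chr12:26469065-26469214, both on the plus strand. Each sequence reads 5′ to 3′ towards the start.
Isg15: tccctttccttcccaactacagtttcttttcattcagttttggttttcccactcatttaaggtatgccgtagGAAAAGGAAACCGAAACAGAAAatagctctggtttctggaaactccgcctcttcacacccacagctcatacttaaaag
Rsad2: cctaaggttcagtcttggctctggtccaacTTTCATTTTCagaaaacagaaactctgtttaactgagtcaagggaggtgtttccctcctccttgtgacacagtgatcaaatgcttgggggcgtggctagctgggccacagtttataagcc
Bst2: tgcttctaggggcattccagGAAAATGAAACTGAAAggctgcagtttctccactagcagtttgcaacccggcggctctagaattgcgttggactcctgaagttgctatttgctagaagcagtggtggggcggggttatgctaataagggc
Ddx60: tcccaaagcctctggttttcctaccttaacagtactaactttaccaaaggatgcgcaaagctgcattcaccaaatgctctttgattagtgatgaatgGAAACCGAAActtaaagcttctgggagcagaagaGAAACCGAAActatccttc
Phf11a: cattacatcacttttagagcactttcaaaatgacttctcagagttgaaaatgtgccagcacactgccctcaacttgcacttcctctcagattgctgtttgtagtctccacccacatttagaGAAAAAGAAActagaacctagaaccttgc
Phf11b: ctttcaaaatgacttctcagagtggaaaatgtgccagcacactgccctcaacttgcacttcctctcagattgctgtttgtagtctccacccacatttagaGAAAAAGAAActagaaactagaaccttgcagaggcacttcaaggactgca
Lgals9: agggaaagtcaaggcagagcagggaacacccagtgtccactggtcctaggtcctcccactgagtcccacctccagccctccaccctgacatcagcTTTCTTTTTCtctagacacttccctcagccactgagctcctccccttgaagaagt
Cmpk2: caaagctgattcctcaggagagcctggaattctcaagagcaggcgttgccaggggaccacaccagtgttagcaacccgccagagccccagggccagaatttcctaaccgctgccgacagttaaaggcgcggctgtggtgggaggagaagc

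Isg15 carried 3 overlapping matches that began 78, 72 and 66 bases before the start. Bst2 carried 2 overlapping matches, beginning 130 and 124 bases before the start, and Ddx60 carried 2 separate ones at 53 and 19 bases. In Rsad2 and Lgals9 the match lay on the opposite strand, with its first base 120 and 55 bases before the start, so the capitals there show the reverse complement. The Phf11a and Phf11b matches, at 29 and 50 bases, stood in nearly the same surrounding letters. Tdrd7 held the core further upstream, 191 bases before the start, and Eif2ak2 and Ifitm3 held it only after the start.

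LPS raised nearly all of these genes. With HACA added, the libraries of 32 genes lay between those of LPS and control, while only 15 genes were called above control. Of the 37 genes, 35 passed the filter on low counts. In LPS relative to control, 34 of the 35 were higher (edgeR quasi-likelihood test, Benjamini-Hochberg adjusted p under 0.05 over 17113 genes), where 15.9% of all tested genes were higher. None was lower, also at an unadjusted p under 0.05 and with DESeq2 or limma-voom. Their median log2 fold change was 2.63, with a range of 0.54 to 6.23, beside −0.05 for all genes tested. Both LPS libraries lay above both control libraries for all 35 in CPM, as they did for 31.4% of all genes. Levels are given as CPM, the counts scaled to the size of each library with TMM factors. These factors were 1.19 and 1.14 in LPS+HACA, 0.812 and 0.676 in LPS, and 1.16 and 1.16 in control. Statements on overlap of CPM hold on this scale, and overlap was not counted with library totals. The CPM of all 37 genes together came to 2077 and 1882 in LPS+HACA, 6782 and 5390 in LPS, and 1064 and 1146 in control. In bulk RNA, fewer cells of a type and less RNA per cell cannot be told apart. Of the 34 calls, 28 held under each of 14 alternatives. Lgals3bp, Nmi and Tdrd7 lost theirs when either control library was left out, Uba7 and Mov10 without control replicate 1, and Ddx60 when its leading transcript stood in for the gene. Lgals3bp also lost its call without LPS replicate 2 or without either LPS+HACA library, and Nmi without any 1 of the 6 libraries.

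Adding HACA to LPS lowered 30 of the 35 genes relative to LPS alone and raised none, where 7.67% and 5.74% of all tested genes were lower and higher. None of the 35 was higher at an unadjusted p under 0.05, nor with DESeq2 or limma-voom. The median log2 fold change was −1.49, with a range of −3.01 to −0.68, beside 0.06 for all genes. In TMM-scaled CPM, both LPS+HACA libraries lay below both LPS libraries for all 35, as for 27.3% of all genes. The 5 genes without a call were Ddx60, Mov10, Tdrd7, Nmi and Epsti1. Scaling by library totals lowered the count of lower genes to 14, and a fit of the 2 groups alone gave 16. The count was 12 and 11 without LPS+HACA replicate 1 and 2, and 19 without either control library, while Isg15, Rsad2, Mx1, Mx2, Cmpk2, Usp18, Phf11b, Helz2, Daxx and Ifitm3 were called under each of 14 alternatives.

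Relative to control, 15 of the 35 genes were still higher in LPS+HACA and none was lower, where 0.894% and 0.257% of all tested genes were higher and lower. None of the 35 was lower at an unadjusted p under 0.05, nor with DESeq2 or limma-voom. The 15 were Rsad2, Mx1, Cmpk2, Mx2, Helz2, Ifi44, Isg15, Daxx, Phf11d, Usp18, Ube2l6, Xaf1, Tor3a, Phf11b and Sp110. The median log2 fold change of the 35 was 1.34, with a range of −0.14 to 3.96, beside 0.00 for all genes. Both LPS+HACA libraries lay above both control libraries for 32 genes, as for 23.4% of all genes, and the 3 others were Ifitm3, Lgals3bp and Epsti1. The count of 15 rested on each control library: without control replicate 1 or 2 it was 0 with edgeR, with 19 and 23 genes at an unadjusted p under 0.05, and over all genes 0 and 2 were then called. It was 7 when either LPS+HACA library was left out, with Isg15, Rsad2, Mx1, Mx2, Cmpk2 and Daxx called both times. Other alternatives moved it both ways: it was 9 with limma-voom, 20 with DESeq2 or with no filter on low counts, and 18 with the 2 groups alone or when either LPS library was left out.

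**Figure D1:**
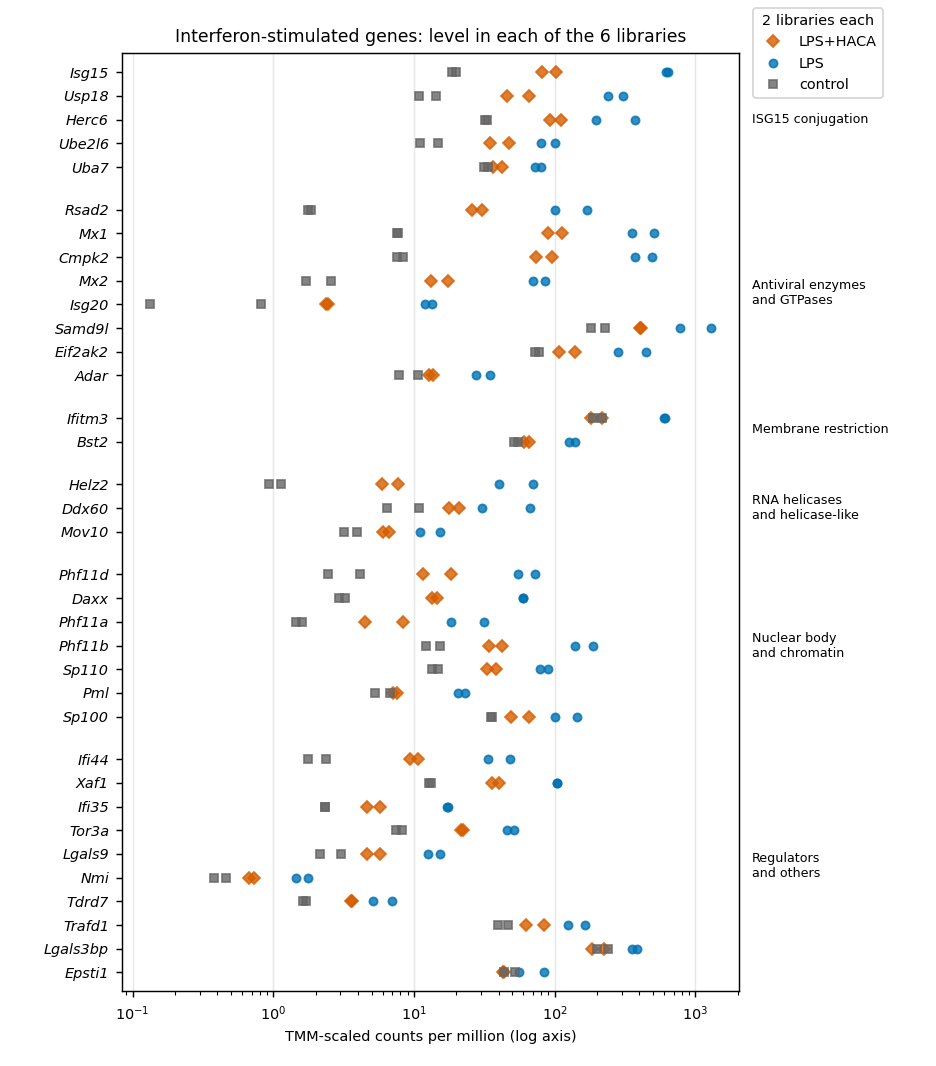
TMM-scaled CPM of the 35 tested interferon-stimulated genes, on a log axis, with 1 point for each of the 6 libraries and the genes grouped by role. The LPS points lie to the right of the control points in every row, and the LPS+HACA points lie to the left of the LPS points in every row.

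The ISG15 conjugation genes rose together in LPS, with the ubiquitin-like protein itself and its removing enzyme moving most. All 5 were higher in LPS than in control and all 5 were lower in LPS+HACA than in LPS, while Isg15, Usp18 and Ube2l6 were still higher in LPS+HACA than in control. Isg15 (chromosome 4, 156199424 to 156200818, GRCm38) had 102 and 81.3 CPM in the LPS+HACA libraries, 614 and 641 CPM in the LPS libraries, and 18.6 and 20.04 CPM in the control libraries. The 3 groups did not overlap, and LPS+HACA lay nearer to control than to LPS. Its log2 fold change was 5.02 ± 0.24 in LPS relative to control (SE, 2 libraries per group, adjusted p = 7.9e-05). Between LPS+HACA and LPS it was −2.78 ± 0.22 (adjusted p = 0.00165), a 6.85-fold lower level. Relative to control, LPS+HACA was 4.74-fold higher (log2 2.25 ± 0.22, adjusted p = 0.00767). Isg15 has a single annotated transcript, and no other transcript overlaps it.

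Usp18, the protease that removes ISG15, had 65.8 and 45.5 CPM in the LPS+HACA libraries, 306 and 240.2 CPM in the LPS libraries, and 14.4 and 10.8 CPM in the control libraries. The groups were again separate and in the same order as for Isg15. The log2 fold change was 4.44 in LPS relative to control (adjusted p = 0.000157), −2.29 in LPS+HACA relative to LPS (adjusted p = 0.00506) and 2.15 in LPS+HACA relative to control (adjusted p = 0.0182). The last call was lost without LPS+HACA replicate 1 or either control library.

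Herc6, the ligase that transfers ISG15, had 112 and 91.9 CPM in the LPS+HACA libraries, 374 and 197 CPM in the LPS libraries, and 32.0 and 33 CPM in the control libraries. Its 2 LPS libraries differed more than those of Isg15, and both still lay above every other library. It rose by 3.14 ± 0.33 on the log2 scale in LPS relative to control (adjusted p = 0.000615) and fell by 1.49 ± 0.31 in LPS+HACA relative to LPS (adjusted p = 0.0219). The difference between LPS+HACA and control was 1.65 ± 0.32 (adjusted p = 0.0623).

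Ube2l6, the conjugating enzyme, had 47.7 and 34.7 CPM in the LPS+HACA libraries, 100.2 and 79.7 CPM in the LPS libraries, and 14.9 and 11.0 CPM in the control libraries. Uba7, the activating enzyme, had 42.2 and 36.5 CPM in LPS+HACA, 80.0 and 72.3 CPM in LPS, and 31.4 and 33.8 CPM in control. Both genes were highest in the 2 LPS libraries, but Uba7 in LPS+HACA stood just above control where Ube2l6 stood well above it. Ube2l6 changed by 2.79 in LPS relative to control (adjusted p = 0.000568), by −1.13 in LPS+HACA relative to LPS (adjusted p = 0.0339) and by 1.67 in LPS+HACA relative to control (adjusted p = 0.0374). For Uba7 the 3 changes were 1.22 (adjusted p = 0.00488), −0.95 (adjusted p = 0.0279) and 0.27 (adjusted p = 0.748). The falls of Herc6, Ube2l6 and Uba7 in LPS+HACA relative to LPS lost their calls without either LPS+HACA library or either control library, and that of Ube2l6 also without LPS replicate 1. The rise of Uba7 in LPS was not called without control replicate 1, and the excess of Ube2l6 in LPS+HACA over control was not called without either LPS+HACA or either control library. Most Uba7 counts, 61.2%, came from 1 retained-intron transcript, and its protein-coding transcript Uba7-201 had 0 counts. Among related genes of the ubiquitin system, Uba1 was higher in LPS than in control (log2 0.71, adjusted p = 0.0354), and Ube2l3, Herc4 and Usp5 were not called in any comparison.

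**Figure D2:**
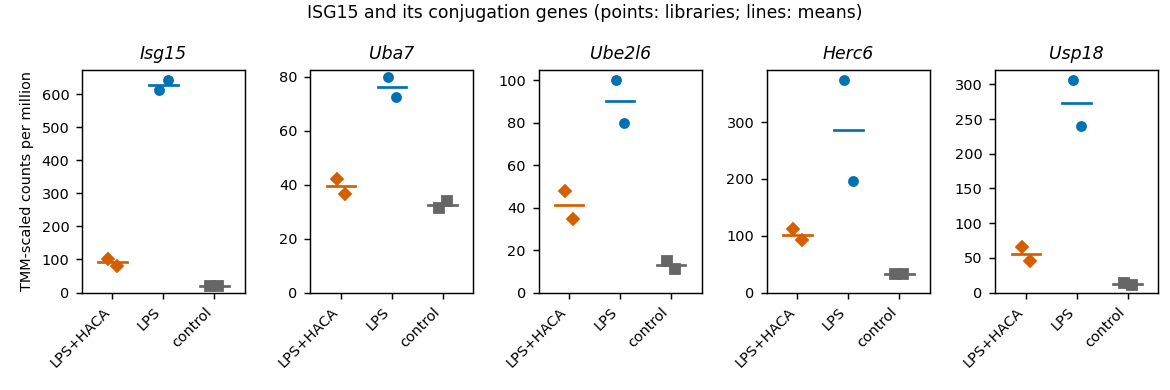
TMM-scaled CPM of Isg15, Uba7, Ube2l6, Herc6 and Usp18, each on its own linear axis, with 1 point for each library and a line at the mean of the 2 libraries in LPS+HACA, LPS and control. In every panel both LPS points lie highest, and for Uba7 the LPS+HACA points at 42.2 and 36.5 lie close to the control points at 31.4 and 33.8.

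The antiviral enzymes and GTPases held the 3 largest rises of the 35 genes, those of Rsad2, Mx1 and Cmpk2. All 8 were higher in LPS than in control and lower in LPS+HACA than in LPS, with median log2 fold changes of 4.94 and −2.18. Rsad2, which encodes viperin, an enzyme that makes a chain-terminating nucleotide, had 30.5 and 26.0 CPM in the LPS+HACA libraries, 170 and 101 CPM in the LPS libraries, and 1.76 and 1.85 CPM in the control libraries. LPS+HACA lay far above control and far below LPS. The level was 74.8-fold higher in LPS than in control (log2 6.23 ± 0.36, adjusted p = 0.000105) and 4.80-fold lower in LPS+HACA than in LPS (log2 −2.26 ± 0.29, adjusted p = 0.00569). Its 15.6-fold excess in LPS+HACA over control (log2 3.96, adjusted p = 0.00532) was the largest of the 35 genes in that comparison. Of the 3720 counts of Rsad2, 13 came from its protein-coding transcript and 72.5% from a transcript typed as a target of nonsense-mediated decay. Of its exonic bases, 13.4% are shared with no other transcript.

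Cmpk2, a mitochondrial nucleotide kinase gene next to Rsad2 on chromosome 12 (26469204 to 26479837, against 26442746 to 26456452 for Rsad2), had 95.5 and 73.1 CPM in the LPS+HACA libraries, 493 and 371 CPM in the LPS libraries, and 8.41 and 7.54 CPM in the control libraries. Its order of groups was that of Rsad2, with no overlap. The log2 fold changes were 5.76 in LPS relative to control (adjusted p = 9.7e-05), −2.36 in LPS+HACA relative to LPS (adjusted p = 0.00339) and 3.40 in LPS+HACA relative to control (adjusted p = 0.00364).

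Mx1 and Mx2, neighbours on chromosome 16, encode dynamin-like GTPases that block viral replication, and many inbred laboratory strains carry defective alleles. Mx1 had 113 and 90.1 CPM in the LPS+HACA libraries, 512 and 354 CPM in the LPS libraries, and 7.53 and 7.74 CPM in the control libraries. Mx2 had 17.4 and 13.3 CPM in LPS+HACA, 85.9 and 70.2 CPM in LPS, and 2.57 and 1.72 CPM in control. The pair moved alike and no group overlapped another. Mx1 changed by 5.82 in LPS relative to control (adjusted p = 9.7e-05), by −2.09 in LPS+HACA relative to LPS (adjusted p = 0.00498) and by 3.73 in LPS+HACA relative to control (adjusted p = 0.00364). The same changes were 5.18, −2.35 and 2.83 for Mx2 (adjusted p = 0.000138, 0.00506 and 0.0115). The annotation types the transcript with 63.2% of Mx1 counts as a target of nonsense-mediated decay, and it types Mx2 as a polymorphic pseudogene.

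Isg20, an exonuclease gene, had 2.37 and 2.43 CPM in the LPS+HACA libraries, 13.4 and 11.9 CPM in the LPS libraries, and 0.816 and 0.132 CPM in the control libraries. The control libraries were low and unequal, and the SE was wide: its log2 fold change was 4.70 ± 0.60 in LPS relative to control (adjusted p = 0.00127) and −2.40 ± 0.51 in LPS+HACA relative to LPS (adjusted p = 0.0231). Between LPS+HACA and control it was 2.30 ± 0.60 (adjusted p = 0.145). The fall lost its call without either LPS+HACA library. Eif2ak2, the RNA-activated kinase PKR, Samd9l, a translation inhibitor, and Adar, the RNA-editing adenosine deaminase, rose by 2.29, 2.34 and 1.74 in LPS relative to control and fell by 1.57, 1.36 and 1.23 in LPS+HACA relative to LPS. None of the 3 was called in LPS+HACA relative to control, and their falls lost the call without either LPS+HACA library, that of Adar also without either control library. Where Adar and its antisense gene Chrnb2 overlap, reads cannot be told apart without strand, and the Chrnb2 counts, 1385, were as many as the 1342 of Adar. The retained-intron transcripts Adar-207, Adar-208 and Adar-209 held 167, 1036 and 134 of the Adar counts. Adar-202, the only protein-coding Adar transcript with any counts, held 5, so the Adar changes describe its retained-intron transcripts.

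Both tested membrane protein genes were higher in LPS than in control and lower in LPS+HACA than in LPS, and neither was called in LPS+HACA relative to control. Ifitm3, which blocks viral fusion in endosomes, had 219 and 181 CPM in the LPS+HACA libraries, 598 and 608 CPM in the LPS libraries, and 217 and 186 CPM in the control libraries. LPS+HACA and control overlapped, and both LPS libraries lay far above them. The log2 fold change was 1.58 in LPS relative to control (adjusted p = 0.00138), −1.60 in LPS+HACA relative to LPS (adjusted p = 0.00569) and −0.01 ± 0.20 in LPS+HACA relative to control (adjusted p = 0.995). Bst2, the virion tether tetherin, changed by 1.32 (adjusted p = 0.0028), −1.07 (adjusted p = 0.0163) and 0.25 (adjusted p = 0.753) in the same 3 comparisons, and its fall lost the call without either LPS+HACA or either control library. Rtp4, a receptor transport protein, had only 1 and 1 counts in LPS+HACA, 2 and 5 in LPS, and 0 and 0 in control, and was not tested. Only 12.6% of its exonic bases are shared with no other transcript.

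Among the helicase genes, Helz2 had the largest fall of the 35 genes. Helz2, a nuclear receptor coactivator with helicase domains, had 5.95 and 7.71 CPM in the LPS+HACA libraries, 40.0 and 70.1 CPM in the LPS libraries, and 1.13 and 0.926 CPM in the control libraries. The groups stood well apart. It rose by 5.73 ± 0.41 in LPS relative to control (adjusted p = 0.000159), fell by 3.01 ± 0.35 in LPS+HACA relative to LPS (adjusted p = 0.00419), and was 2.72 ± 0.38 higher in LPS+HACA than in control (adjusted p = 0.0208). The last call was lost without LPS+HACA replicate 2 or either control library. Only 12.3% of the exonic bases of Helz2 are shared with no other transcript.

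Ddx60, a helicase gene linked to antiviral RNA sensing, had 20.9 and 17.8 CPM in the LPS+HACA libraries, 67.2 and 30.3 CPM in the LPS libraries, and 6.46 and 10.8 CPM in the control libraries. Mov10, a helicase gene that restricts retroelements, had 6.68 and 6.02 CPM in LPS+HACA, 15.3 and 11.0 CPM in LPS, and 3.20 and 3.90 CPM in control. Neither gene had overlapping groups, but the 2 LPS libraries of Ddx60 had the widest ratio of the 35 genes, 2.21. Ddx60 rose by 2.5 in LPS (adjusted p = 0.00428), and its difference of −1.33 ± 0.41 between LPS+HACA and LPS was not called (adjusted p = 0.0686). For Mov10 the rise was 1.88 (adjusted p = 0.0037) and the uncalled difference was −1.05 ± 0.30 (adjusted p = 0.0573). No Mov10 counts came from a protein-coding transcript: the retained-intron Mov10-209 held 388, and Mov10-208, typed as a processed transcript, held 188. Rnf213, a giant ligase with ATPase modules, had 3 and 0 counts in LPS+HACA, 3 and 0 in LPS, and 0 and 0 in control, and was not tested: only 4 of its exonic bases are shared with no other transcript, while its antisense neighbour A930037H05Rik held 5775 counts.

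All 7 nuclear body and chromatin genes were higher in LPS than in control and lower in LPS+HACA than in LPS, with median log2 fold changes of 3.57 and −1.96, and 4 were still higher in LPS+HACA than in control. Daxx, a histone chaperone gene, had 14.6 and 13.5 CPM in the LPS+HACA libraries, 59.6 and 59.5 CPM in the LPS libraries, and 2.95 and 3.24 CPM in the control libraries. Its replicates were close in each group and the groups were separate. The 3 log2 fold changes were 4.26 ± 0.26 in LPS relative to control (adjusted p = 0.000106), −2.08 ± 0.23 in LPS+HACA relative to LPS (adjusted p = 0.0039) and 2.18 ± 0.24 in LPS+HACA relative to control (adjusted p = 0.0115). Phf11b, a PHD finger gene, had 42.1 and 34.0 CPM in LPS+HACA, 188 and 139 CPM in LPS, and 12.1 and 15.4 CPM in control. Here too the groups were separate, with LPS+HACA nearer to control. It changed by 3.57 in LPS relative to control (adjusted p = 0.000204), −2.10 in LPS+HACA relative to LPS (adjusted p = 0.0055) and 1.47 in LPS+HACA relative to control (adjusted p = 0.0463), the last call being lost without either LPS+HACA or either control library.

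Its neighbours Phf11a and Phf11d rose by 4.04 and 4.26 in LPS relative to control and fell by 1.96 and 2.09 in LPS+HACA relative to LPS. Of the 50-base words in the Phf11b and Phf11a transcripts, 47% and 35.2% occur in other genes, among them Phf11c and each other, so the division of reads among them is uncertain. Pml, the scaffold of PML nuclear bodies, rose by 1.85 in LPS relative to control and fell by 1.57 in LPS+HACA relative to LPS, and its partner gene Sp100 changed by 1.78 and −1.08. Neither was called in LPS+HACA relative to control, where Pml stood at 0.28 and Sp100 at 0.70. Sp110, a related gene on chromosome 1, rose by 2.58, fell by 1.24 and was still 1.34 higher in LPS+HACA than in control (adjusted p = 0.0372), with 42.3% of its 50-base words found in other genes. Its protein-coding transcript Sp110-201 had 0 counts. The falls of Phf11a, Phf11d, Pml, Sp100 and Sp110 lost the call without LPS+HACA replicate 2, those of Pml, Sp100 and Sp110 also without replicate 1, those of Phf11a and Sp100 without either control library, and that of Sp100 without LPS replicate 1. The excess of Phf11d and Sp110 in LPS+HACA over control was lost without either LPS+HACA or either control library.

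The remaining 10 genes gave a mixed picture: 9 were higher in LPS than in control, 7 were lower in LPS+HACA than in LPS, and 3 were higher in LPS+HACA than in control. Ifi44, a cytoplasmic protein gene named for its induction by interferon, had 10.7 and 9.33 CPM in the LPS+HACA libraries, 48.5 and 33.4 CPM in the LPS libraries, and 1.76 and 2.38 CPM in the control libraries. The groups did not overlap. It changed by 4.30 in LPS relative to control (adjusted p = 0.000201), −2.03 in LPS+HACA relative to LPS (adjusted p = 0.00773) and 2.27 in LPS+HACA relative to control (adjusted p = 0.0208). Xaf1, a proapoptotic antagonist of XIAP, and Tor3a, a torsin ATPase gene, rose by 3.0 and 2.63 in LPS, fell by 1.44 and 1.14 in LPS+HACA relative to LPS, and were 1.56 and 1.48 higher in LPS+HACA than in control. Ifi35, the binding partner of NMI, and Lgals9, which encodes galectin-9, rose by 2.89 and 2.43 and fell by 1.73 and 1.43. Of the Lgals9 counts, 99.6% came from the retained-intron Lgals9-204, and the protein-coding transcripts of Tor3a had no counts. Trafd1, a feedback inhibitor of innate signalling, rose by 1.74 and fell by 0.98. The falls of Ifi35, Xaf1, Tor3a, Lgals9 and Trafd1 lost the call without either LPS+HACA library and that of Ifi44 without replicate 1, while Tor3a, Lgals9 and Trafd1 also lost it without either control library and Trafd1 without LPS replicate 2. For Ifi44, Xaf1 and Tor3a the excess in LPS+HACA over control was not called without either LPS+HACA or either control library.

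The genes of these 10 not called lower in LPS+HACA than in LPS were Nmi, Tdrd7 and Epsti1. Nmi, an interferon-induced adaptor, had 0.729 and 0.676 CPM in LPS+HACA, 1.77 and 1.45 CPM in LPS, and 0.376 and 0.463 CPM in control. Tdrd7, a Tudor domain gene, had 3.58 and 3.65 CPM in LPS+HACA, 5.12 and 6.94 CPM in LPS, and 1.63 and 1.72 CPM in control. In both, LPS+HACA lay between the other groups with no overlap. Nmi rose by 1.92 in LPS (adjusted p = 0.0392) and differed by −1.18 ± 0.55 between LPS+HACA and LPS (adjusted p = 0.187), and Tdrd7 rose by 1.84 (adjusted p = 0.0066) and differed by −0.74 ± 0.33 (adjusted p = 0.179).

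Epsti1, a gene linked to macrophage activation, was the one tested gene not called in LPS relative to control. It had 43.5 and 43.2 CPM in LPS+HACA, 83.4 and 55.4 CPM in LPS, and 43.7 and 52.1 CPM in control. Even so, in TMM-scaled CPM both LPS libraries were the highest, and both LPS+HACA libraries the lowest, of the 6. The raw count of Epsti1 was 575 in LPS replicate 2, the library with the largest total, against 696 and 788 in control. Its log2 fold changes were 0.54 ± 0.26 in LPS relative to control (adjusted p = 0.154; −0.08 when scaled by library totals), −0.68 ± 0.26 in LPS+HACA relative to LPS (adjusted p = 0.12) and −0.14 ± 0.26 in LPS+HACA relative to control (adjusted p = 0.937). Lgals3bp, a secreted galectin ligand, had 186 and 225 CPM in LPS+HACA, 354 and 382 CPM in LPS, and 200.4 and 239 CPM in control. Control and LPS+HACA overlapped. It rose by 0.74 in LPS relative to control (adjusted p = 0.0305) and fell by 0.84 in LPS+HACA relative to LPS (adjusted p = 0.0368), a fall not called without LPS replicate 2 or without any 1 of the LPS+HACA and control libraries. Over the 14 alternatives these 2 log2 fold changes of Lgals3bp ran from 0.10 to 0.88 and from −0.99 to −0.20.

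**Figure D3:**
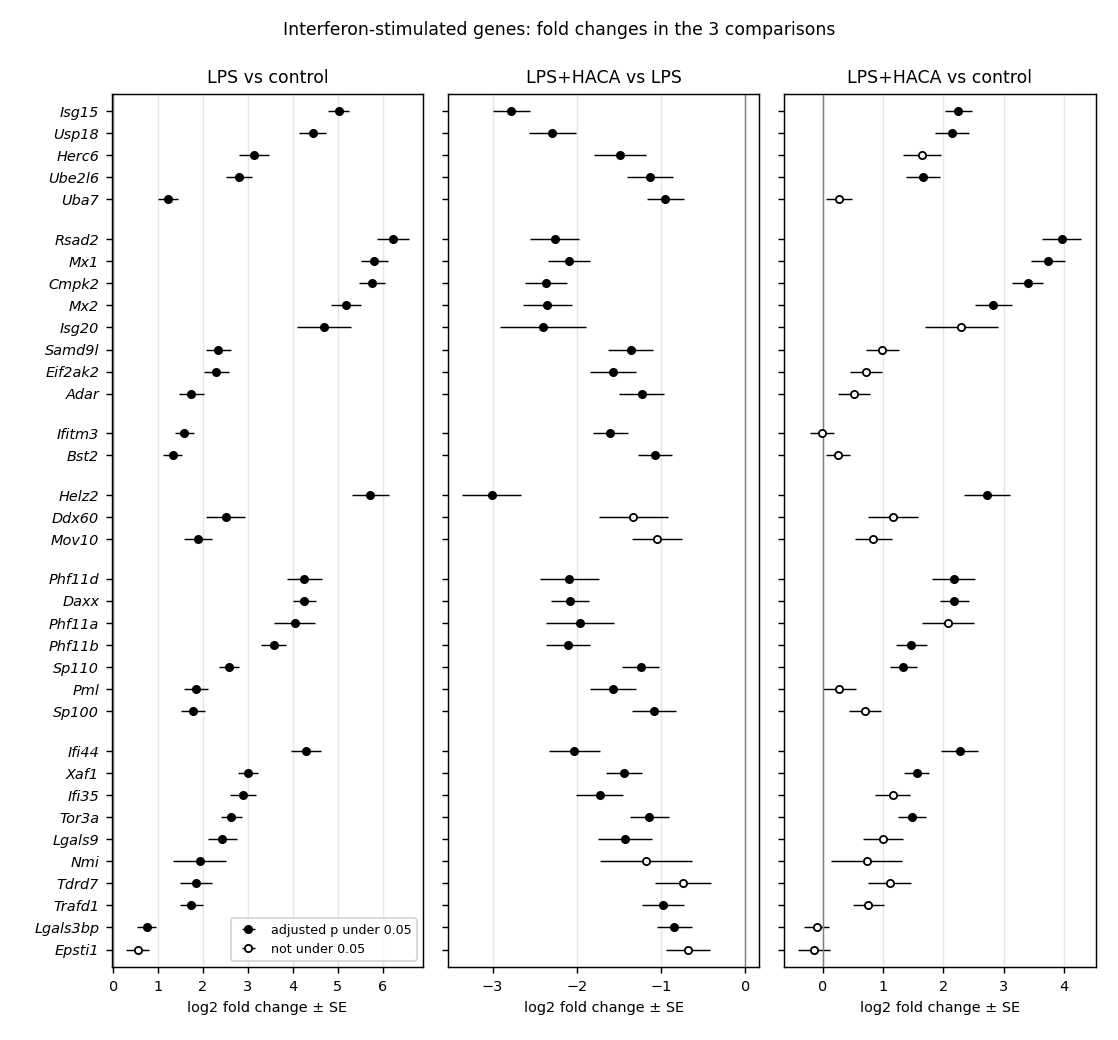
Log2 fold changes of the 35 tested genes with SE bars in the 3 comparisons, each on its own axis, with filled points for an adjusted p under 0.05 in edgeR's quasi-likelihood test and open points for the rest. Every point lies above 0 in LPS relative to control and below 0 in LPS+HACA relative to LPS, and Helz2 at −3.01 lies lowest in that second panel.

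Levels can be compared between genes only per length, and this was done with the deposited FPKM for 9 genes whose leading protein-coding transcript held at least 90% of the counts of the gene and which have at least 50% of their exonic bases to themselves, a set chosen after the values were seen. Means of the 2 libraries are given. Reads that several transcripts share were largely absent from the counts, so FPKM over the whole length may be too low for genes with fewer bases of their own. That share was 100% for Isg15 and Ifitm3 but 66.7% for Bst2 and 51.6% for Lgals3bp. FPKM was also summed over transcripts, where a short transcript such as Lgals3bp-203 weighs more than its counts. The order of genes with near values is therefore uncertain. In LPS, Isg15 at 871 FPKM and Ifitm3 at 868 FPKM led, with no difference beyond their spread, and Phf11a at 18.2 FPKM was lowest. Samd9l at 202, Lgals3bp at 197, Bst2 at 174, Usp18 at 172, Phf11b at 135 and Eif2ak2 at 115 FPKM lay between, and of the neighbours in this order Samd9l overlapped Lgals3bp, Usp18 overlapped Bst2 and Phf11b, and Phf11b overlapped Eif2ak2. In the LPS+HACA group the order was led by Ifitm3 at 282 FPKM, followed by Isg15 at 125, Lgals3bp at 97.9, Bst2 at 79 and Samd9l at 77.0 FPKM, the last pair with overlapping libraries. In control, Ifitm3 at 293 FPKM was again first, Lgals3bp at 99.3 FPKM second, and Isg15 at 27.1 FPKM stood below Bst2 at 67.5 and Samd9l at 39.3 FPKM. Ifitm3 and Lgals3bp had nearly the same FPKM in LPS+HACA as in control.

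The 37 genes comprise 206 deposited transcripts, of which 108 from 34 genes passed the filter. In LPS relative to control, 96 of the 108 were higher (13.9% of all 31475 transcripts tested), with a median log2 fold change of 2.74, and none was lower (12.5% of all). In LPS+HACA relative to LPS, 64 were lower (6.31% of all transcripts) and none higher (4.75%), with a median of −1.45. Relative to control, 29 were higher in LPS+HACA (1.07% of all) and none was lower (0.327%). The log2 fold changes of the 108 ran from 0.53 to 6.85 in LPS relative to control and from −3.69 to −0.10 in LPS+HACA relative to LPS. Lgals3bp-201, with 96.4% of the counts of its gene, changed by 0.67 ± 0.22 in LPS relative to control, whereas the short Lgals3bp-203 changed by 2.73 ± 0.39. For Ddx60 the protein-coding Ddx60-205 rose by 4.01 ± 0.37 in LPS (adjusted p = 3.97e-05) and fell by 1.65 ± 0.32 in LPS+HACA relative to LPS (adjusted p = 0.00973), while the retained-intron Ddx60-203, with 45.3% of the counts of the gene, rose by 2.16 ± 0.66 and was not called in LPS+HACA relative to LPS. These differences between transcripts were not tested.

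Retained-intron transcripts held 11.6% of the counts of the 37 genes and protein-coding ones 76.3%. The retained-intron share was computed for the 12 genes with at least 200 counts in such transcripts and as many in protein-coding ones. In Cmpk2, Herc6, Ifi44 and Sp100 it was higher in all 4 libraries with LPS than in both controls, in Ddx60 and Usp18 it was lower in all 4, and in the 6 others the libraries overlapped. For Ifi44 the share was 51.7% and 58% in LPS+HACA, 51.2% and 60.5% in LPS, and 28.6% and 41.7% in control. The control shares of Ifi44 rest on few reads, 8 and 15 retained-intron counts out of 28 and 36 for the gene. For Herc6 it was 45.4% and 51.4% in LPS+HACA, 45.4% and 59.5% in LPS, and 38% and 40.9% in control. Usp18 went the other way, with 8.58% and 9.81% in LPS+HACA, 5.16% and 7.1% in LPS, and 11.8% and 11% in control. For Xaf1 the share was between 78.5% and 81.8% in all 6 libraries. These shares were not tested, and the set of reads assigned to each transcript type depends on how the authors counted overlapping transcripts. The same shares were not computed over all genes, so how often such a separation arises elsewhere is not known.

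The genes upstream of these targets moved in part with them. Of 16 tested genes of the interferon pathway, 10 were higher in LPS than in control and 7 were lower in LPS+HACA than in LPS, with median log2 fold changes of 1.46 and −0.78, and Irf8 was lower in LPS than in control (−1.13 ± 0.23). Ifnb1, which encodes interferon beta, had 30 and 19 counts in LPS+HACA, 167 and 140 in LPS, and 2 and 0 in control. Its scaled ratio of summed counts was 232 in LPS to control (95% interval of counting error 63.7 to 1926) and 24.3 in LPS+HACA to control (6.39 to 206.7), and it fell by 3.26 ± 0.45 on the log2 scale in LPS+HACA relative to LPS (adjusted p = 0.00684). It was 4.42 ± 0.72 higher in LPS+HACA than in control (adjusted p = 0.034). The receptor genes Ifnar1 and Ifnar2 were not called in any comparison. Of the factors that bind the ISRE, Stat2 and Irf9 rose by 2.26 and 1.78 in LPS and fell by 1.21 and 1.11 in LPS+HACA relative to LPS. Irf7, the amplifier of interferon genes, had 10.9 and 12.8 CPM in LPS+HACA, 38.2 and 37.7 CPM in LPS, and 2.57 and 1.79 CPM in control, and its 3 log2 fold changes were 4.11, −1.68 and 2.44 (adjusted p = 0.000169, 0.00982 and 0.0143). Socs3, a feedback inhibitor of cytokine receptors, changed by 5.29 in LPS relative to control, −3.08 in LPS+HACA relative to LPS and 2.21 in LPS+HACA relative to control.

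Interferon-stimulated genes of the large families (such as the IFIT, OAS, GBP, IRG, PARP and SLFN genes) gave similar counts. Of 41 tested, 40 were higher in LPS than in control, with a median of 3.06 and Gbp5 (6.58) and Gbp6 (6.05) highest. In LPS+HACA relative to LPS, 32 of the 41 were lower, with a median of −1.66 and Ifi205 (−3.40) and Oasl1 (−2.70) lowest, and 16 were higher in LPS+HACA than in control, with a median of 1.43 and Iigp1 (4.82) and Gbp5 (4.33) highest. NF-kB targets that are not listed as interferon-stimulated had medians of 5.0 in LPS relative to control, with 15 of 16 higher, and −2.61 in LPS+HACA relative to LPS, with 13 of 16 lower. Ptgs2 (11.57) and Il6 led the rises, Il6 with a scaled ratio of 917 in LPS to control (253 to 7578), and Il1a (−7.84) and Ptgs2 (−7.01) led the falls. In LPS+HACA relative to control, 5 of the 16 were higher, with a median of 1.59 beside 1.34 for the 35 genes, Ptgs2 (4.57) and Tnf (2.99) being the highest of those called. Differences between the lists were not tested. All comparisons share libraries, so the values stand side by side and are not independent of each other.

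**Figure D4:**
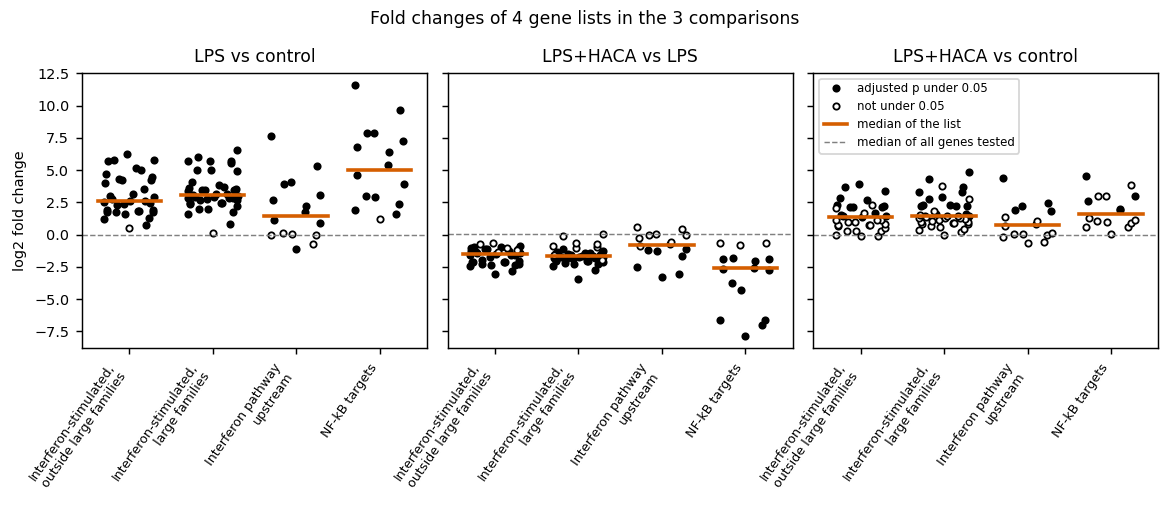
Log2 fold changes of single genes in 4 lists for the 3 comparisons, with filled points for an adjusted p under 0.05, open points for the rest, an orange line at the median of each list and a dashed line at the median of all genes tested. The 35 interferon-stimulated genes lie at a median of 2.63, −1.49 and 1.34 in the 3 panels, next to 3.06, −1.66 and 1.43 for the large families.

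Library totals lay between 12529874 and 15379496 counts. Lyz2, a macrophage lysozyme gene, held nearly all of the summed macrophage marker level, which was 30602 and 33163 CPM in LPS+HACA, 39544 and 48019 CPM in LPS, and 40867 and 39314 CPM in control, and Adgre1 and Itgam, which mark macrophages, had at most 0.674 and 1.82 CPM. Mertk and Itgam were lower in LPS than in control (log2 −1.69 and −3.13). Summed stromal marker levels differed by replicate number and not by group: they were 49.6 and 1.35 CPM in LPS+HACA, 32.3 and 2.31 CPM in LPS, and 47.2 and 1.72 CPM in control. The 6 neutrophil markers summed to 4.74 and 33.3 CPM in LPS+HACA, 13 and 61.4 CPM in LPS, and 6.71 and 35.7 CPM in control, with Ly6g and S100a9 at 0. Dendritic markers summed to 11.0 and 12.6 CPM in LPS+HACA, 24.9 and 26.8 CPM in LPS, and 8.09 and 9.85 CPM in control, so their sum moved in the same direction as the 37 genes. Most of the sum in LPS came from Xcr1, with means of 2.93 CPM in LPS+HACA, 16.1 CPM in LPS and 1.28 CPM in control. Ccr7 was also highest in LPS, but Zbtb46 and Clec9a had their highest mean in LPS+HACA and Flt3 in control. Of those 6 markers Xcr1 was called in both comparisons with LPS and Cd209a was at 0, and the part of such cells in the results was not tested. Plasmacytoid dendritic cells are strong interferon producers, and their markers Klk1 and Siglech were at 0 and at most 0.331 CPM. The summed level of their 5 markers, with Ccr9 called higher in LPS than in control and lower in LPS+HACA than in LPS, was 45.4 and 44.6 CPM in LPS+HACA, 66.9 and 46.3 CPM in LPS, and 62.3 and 67.4 CPM in control. B cell markers summed to 0.296 to 2.25 CPM and T and NK cell markers to 0.270 to 0.591 CPM.

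The replicates of a group differed in the same direction for most of the 35 genes. Replicate 1 was higher than replicate 2 for 27 of the 35 in LPS+HACA (48.7% of all genes), for 25 in LPS (50.2% of all genes) and for 12 in control (49.5% of all genes). The median ratio of replicate 1 to replicate 2 was 1.16, 1.23 and 0.932 in the same groups. In LPS this ratio ran from 0.57 for Helz2 to 2.21 for Ddx60.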

How the data were processed

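Per the labels' protocols, TruSeq libraries were made from poly-A RNA. Among programs, the submitters' processing notes list STAR 2.5.4b, edgeR 3.28.1, DESeq2 1.26.0, limma, CASAVA and Trim Galore, and among builds GRCh38 and GRCm38. They state neither roles nor an order. Which program counted the reads is not given in the sources used here. Raw counts per transcript were deposited, as the file headers and the whole-number values show, together with FPKM values per transcript from the authors. Transcripts typed misc_RNA held 24.3% to 29.2% of the counts of a library.

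Counts were summed per gene with GENCODE release M21, since the files hold transcripts: 141524 of 142647 transcripts matched, and the 1123 others held at most 0.115% of a library. Genes were filtered with filterByExpr, scaled with TMM factors and fitted with edgeR 4.0.16 (R 4.3.3), in 1 quasi-likelihood model of all 6 libraries that holds the 3 groups and leaves 3 residual degrees of freedom. SEs were obtained by dividing each log2 fold change by the root of its F statistic. Transcripts were fitted in the same way. The procedure was also run on simulated counts with known changes, and no result here rests on that run. Of the transcripts of the 37 genes, 69 have no base of their own and held 233 of 221128 counts, so reads that several transcripts share are largely absent from the table. Bases of their own, shared with no other transcript, made up under 50% of the exonic bases for 22 of the 37 genes and under 20% for 8, and for 18 the leading transcript was not typed protein coding. A change in isoform use cannot be told apart from a change in expression there.

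Alternatives were RLE factors, library totals, no filter, DESeq2 1.42.0, limma-voom (limma 3.58.1), a replicate block, the leading transcript, the 2 groups alone, and leaving out each library. The labels do not say that replicates were separate cultures, so the spread behind each p-value is that between these libraries alone and may be technical. The genes, lists and tests were chosen with earlier results of these data known. Values in every library are given for the ISG15 conjugation genes, the 8 largest called changes per direction and comparison with a mean of at least 5 CPM, and every gene without a call or a test in the first 2 comparisons; from each list, up to 2 called genes per direction are named, plus pathway genes picked for their role.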

Additional observations from a re-analysis of the deposited data

How the results depend on the processing

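The count of 34 interferon-stimulated genes higher in LPS than in control ran from 29 to 33 with 1 library left out, and 31 to 34 under the other alternatives. The median of 2.63 ran from 2.53 to 2.88 with 1 library left out and was 1.99 with library totals, a scaling that moved the median of all genes from −0.05 to −0.69. In LPS+HACA relative to LPS, the 30 lower genes became 14 with library totals and 16 with the 2 groups alone, and 11 to 31 with 1 library left out. The median of −1.49 was −0.88 with library totals, where all genes moved from 0.06 to 0.70, and ran from −1.68 to −1.37 with 1 library left out. In LPS+HACA relative to control, the 15 higher genes became 9 with limma-voom, 20 with DESeq2 or no filter, 18 with the 2 groups alone, and 0 to 18 with 1 library left out, and the median ran from 1.25 to 1.47. With 1 library left out of a group, the remaining one is assumed to vary like the other groups. Of 1467 results for single interferon-stimulated genes under alternatives, 1251 kept their side of the threshold, 182 lost a call and 34 gained one. No called fold change turned its sign. The sign changed in 5 of the 1467, all of uncalled values: Epsti1 in LPS relative to control was −0.08 with library totals, and in LPS+HACA relative to control Ifitm3 ran from −0.14 to 0.12 and Lgals3bp from −0.24 to 0.05. Over all genes tested, 2295 calls in LPS+HACA relative to LPS ran from 368 to 4311 under the alternatives, and 197 calls in LPS+HACA relative to control from 0 to 935. The share of promoters with the ISRE core was 25% with the 250 upstream bases alone. The cause of these changes was not tested.

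Deviations of same-numbered libraries from their group means correlated at r = 0.28 between control and LPS, 0.48 between control and LPS+HACA and 0.45 between LPS and LPS+HACA over all genes, and at −0.21, 0.05 and 0.60 over the interferon-stimulated genes. Summed stromal and neutrophil marker levels also split by number in every group. The labels do not say what a number stands for, and each comparison has only 2 pairs, so the numbers were not taken as pairs, and these values are a hint from the data. With the replicate block, 34 genes were higher in LPS than in control, 32 were lower in LPS+HACA than in LPS (Ddx60 and Mov10 gained a call) and 21 were higher in LPS+HACA than in control (Herc6, Ifi35, Isg20, Phf11a, Samd9l and Trafd1 gained a call), and no call was lost.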
